A study of Macaca mulatta with 80 samples.

Results

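Gene expression in field CA1 of the hippocampus was compared between adult rhesus monkeys and monkeys aged 6 months. The comparison used 8 of the 80 arrays of a study of the postnatal hippocampal formation. These were the 4 arrays of adult CA1 (animals 6 to 12 years old, array numbers 1 to 4) and the 4 arrays of CA1 at 6 months (numbers 9 to 12). They were chosen by their labels alone. All 16 animals of the study were male rhesus monkeys (Macaca mulatta) and were killed by an overdose of pentobarbital. CA1 was dissected with all its layers from the middle of the hippocampal body, and only the middle of its transverse extent was taken, so each array holds neurons, glia and vessels together. Each array stands for 1 animal, different animals were used at each age, and n = 4 is the number of animals. The 4 CA1 arrays of newborns (1 day old) and the 4 of one-year-olds set the same genes in time, and the dentate gyrus (DG), entorhinal cortex (EC) and subiculum (Sub) of the same animals served for comparison between regions. In bulk tissue, fewer cells of a type and less RNA per cell cannot be told apart.

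CA1 is the output field of the hippocampus proper. Its pyramidal cells receive the Schaffer collaterals of CA3 on their proximal dendrites and entorhinal fibres on their distal tufts, and project to the subiculum and the deep layers of the entorhinal cortex. During postnatal life its neurons lose growth-associated transcripts, exchange NMDA receptor subunits and refine synapses, while interneurons gain fast-spiking properties and oligodendrocytes form myelin. How the primate field changes between infancy and adulthood is the question of this comparison.

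Values are log2 signals after quantile normalization, so a difference of 1 is a 2-fold difference in signal. Arrays were designed for human transcripts, and a probe that departs from the macaque sequence reads low at every age. The labelled tissue was checked against markers over the 8 arrays. SLC17A7, the vesicular glutamate transporter of excitatory cells, averaged 11.48, and CAMK2A, the synaptic kinase subunit, averaged 10.76. POU3F1, a transcription factor of CA1 pyramidal cells, averaged 8.04 in CA1 and 7.98 in the subiculum, against 6.44 to 6.64 in DG, EC and CA3. Other CA1 markers separated the regions little: WFS1 averaged 6.38 in CA1 and 6.04 to 6.33 elsewhere, and FIBCD1 averaged 6.72 in CA1 and 6.35 to 6.69 elsewhere.

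RNA integrity was read from control probe sets at both ends of 2 housekeeping transcripts, whose 3' to 5' log2 ratio grows as long RNA is lost. The GAPDH ratio was 3.13, 2.65, 2.85 and 3.19 in adult CA1, against 2.92, 3.29, 3.0 and 1.76 in CA1 at 6 months, the last in array number 12. Means were 2.95 ± 0.25 in adults and 2.74 ± 0.67 at 6 months (SD, n = 4 each), a difference of 0.21 (exact two-sided permutation test, p = 0.743, smallest p possible 0.0286). Both groups were above newborn CA1 (1.37 ± 0.06) and above the DG arrays of the same ages (1.38 in adults, 1.03 at 6 months). The ACTB ratio was 3.93, 4.35, 4.58 and 5.03 in adult CA1, against 4.39, 3.67, 4.01 and 3.95 at 6 months, a difference of 0.47 (exact two-sided permutation test, p = 0.2). Array number 12 also stood apart in single genes of several cell types. GFAP, the intermediate filament of astrocytes, was at 10.09 there and at 6.65 to 7.86 in the other 3 six-month arrays, and MBP, a myelin protein, was at 11.06 against 8.48 to 9.19. The glycolysis genes ALDOA and ENO2 were at 12.34 and 11.84 there, against 10.08 to 10.27 and 9.98 to 10.36, while the myelin genes CNP (9.14) and CLDN11 (8.16) lay within the range of the others. Newborn CA1 had means of 10.69 for GFAP, 12.29 for MBP, 12.11 for ALDOA and 11.67 for ENO2. These genes were picked after their values were seen. In GAPDH ratio, GFAP and MBP the array thus lay between the newborn and the other six-month arrays. In NTS (7.22) and SOX6 (7.41), also picked after their values were seen, it lay within the range of the other six-month arrays. That range was 7.01 to 8.11 for NTS and 7.35 to 7.65 for SOX6, and newborns had 8.84 to 9.29 and 8.11 to 8.25. Why array number 12 stood apart, its age label included, was not tested. The array was used as labelled, and the counts and the named genes that it moved most are given with and without it.

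**Figure D1:**
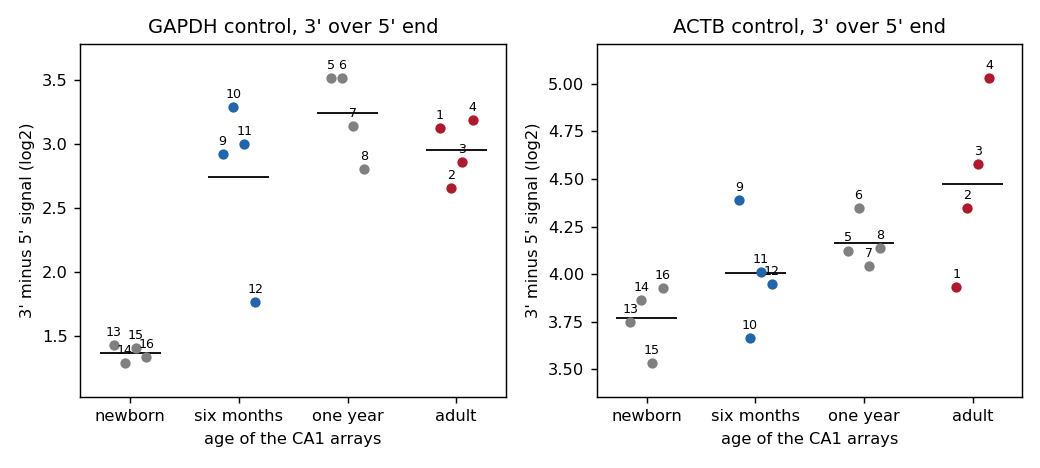
The 3' minus 5' log2 signal of the GAPDH (left) and ACTB (right) control transcripts in each of the 16 CA1 arrays by age; points carry the array number and lines are group means of 4 arrays. Six-month array 12 had a GAPDH ratio of 1.76, near the newborn arrays, and the adult arrays covered 3.93 to 5.03 for ACTB.

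Between 6 months and adulthood CA1 lost signal of the neuropeptide neurotensin, of the transferrin receptor, and of SOX4, SOX11 and NREP, genes of immature neurons and neurite outgrowth. Some other probe sets of SOX4, NREP and the transferrin receptor did not share the fall. Genes that rose include the synaptic vesicle gene VAMP1, the aldo-keto reductases AKR1C1, AKR1C2 and AKR1B10, and NQO1. The metallothionein genes MT1X, MT2A and MT1E passed as well, but lost the call when some single animals were left out. Of 19775 genes tested, 384 passed an adjusted p of 0.05, which is 1.94% of all genes. Of these 173 were higher in adults (0.875%) and 211 were lower (1.07%). At an unadjusted p under 0.05 the count was 3104 (15.7%). In 327 of the 384 genes the 4 adult values did not overlap the 4 six-month values. A call by p favours separate groups, so this count is no evidence beyond the calls themselves. The median size was 0.60 for genes that rose and −0.66 for genes that fell, and 8 and 18 genes moved by more than 1 log2 unit. The median change of all genes was 0.01.

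The number of calls depended on single animals, on the ages that entered the fit and on the ACTB ratio. The part of the ACTB ratio in the calls was not tested beyond the fits given here. The number of calls was 715 without adult array 1, 175 without adult array 2, 161 without adult array 3 and 152 without adult array 4. It was 227 without six-month array 9 and 129 without six-month array 10. Without six-month array 12, whose GAPDH ratio was low, 484 genes were called, and 262 of them were among the 384. With the GAPDH ratio as covariate 577 genes were called (2.92%), and with the ACTB ratio 29 (0.147%), of which 28 were among the 384. All 384 genes had the same sign of change with either covariate. They were chosen by their change in these same arrays, so a kept sign is no evidence beyond the calls. The spread behind each p was estimated from all 16 CA1 arrays, newborns included, and the adjusted p values below rest on it. A fit on the 8 arrays alone called 17 genes. Without the newborn arrays, a fit added after the data were seen, 69 genes were called. The split of 45.1% higher became 37.7% with values as deposited (69 genes) and 26.6% with each array centred on its median (64 genes).

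The fall of NTS was the greatest of the named genes. NTS encodes neurotensin, a peptide that modulates dopamine and glutamate transmission. It was at 5.59, 5.07, 4.92 and 5.55 in adult CA1, against 7.55, 8.11, 7.01 and 7.22 at 6 months, and fell by 2.19 (SE 0.21, limma adjusted p = 1.98e-05). Every adult animal was more than 1 log2 unit below every six-month animal. The gene remained called in each fit that left out 1 animal and with the ACTB ratio as covariate (adjusted p = 0.00141). NTS is also a member of the list of subicular neurons, with a mean of 7.55 in Sub and 6.38 in CA1 over 8 arrays each. No other member of that list passed. ROBO1 changed by −0.48 (limma adjusted p = 0.268), TLE4 by −0.003 and HTR2C by 0.48.

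SOX4 and SOX11 are transcription factors of newly formed neurons. SOX4 was at 7.51, 7.68, 6.54 and 6.91 in adults, against 8.36, 8.67, 8.52 and 8.59 at 6 months, and fell by 1.38 (SE 0.18, adjusted p = 0.000498). SOX11 was at 6.44, 5.71, 6.41 and 5.96 in adults, against 7.07, 7.14, 6.62 and 6.93 at 6 months, and fell by 0.81 (SE 0.15, adjusted p = 0.0122). Neither gene's groups overlapped, and adult arrays 3 and 4 were the lowest for SOX4. Of the other probe sets, 3 of 5 for SOX4 and 2 of 2 for SOX11 shared its direction. NREP, a neuronal protein linked to regeneration and neurite growth, was at 9.13, 8.57, 9.77 and 8.91 in adults, against 10.44, 10.39, 10.17 and 10.16 at 6 months. It fell by 1.2 (SE 0.19, adjusted p = 0.00319), although only 1 of its 3 other probe sets shared its direction. These 3 genes stayed called when any 1 animal was left out. Over all 20 alternative fits SOX4 lost the call in 1 and NREP in 4. Their falls shrank to as little as 0.20 and 0.21 there, with limma adjusted p up to 0.167 and 0.293.

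NRP1, EPHA5, ASAP2 and ARHGAP12 also fell. NRP1, the neuropilin co-receptor for semaphorins and VEGF, was at 4.96, 4.68, 4.65 and 4.64 in adults, against 5.90, 5.82, 5.83 and 6.34 at 6 months, a fall of 1.24 (SE 0.14, adjusted p = 0.000236). The groups were separate, at a low signal, and 1 of 3 other probe sets shared its direction. EPHA5, an ephrin receptor of axon guidance, was at 5.67, 6.14, 6.59 and 6.32 in adults, against 7.13, 7.39, 7.01 and 8.59 at 6 months, a fall of 1.35 (SE 0.32, adjusted p = 0.0348). Array number 12 gave its highest value. EPHA5 was not called without adult array 1, 2 or 4 or without six-month array 10 or 12 (adjusted p = 0.0521 to 0.0767), and fell short with a change of −1.0 without array 12. ASAP2, an activator of ARF GTPase hydrolysis at focal adhesions, was at 6.54, 6.05, 6.78 and 6.40 in adults, against 7.72, 8.56, 7.13 and 7.50 at 6 months, a fall of 1.28 (SE 0.22, adjusted p = 0.00607). ARHGAP12, a GTPase-activating protein for Rac at excitatory synapses, was at 7.33, 5.87, 6.69 and 7.03 in adults, against 7.84, 7.76, 7.73 and 7.91 at 6 months, a fall of 1.08 (SE 0.24, adjusted p = 0.0301). The adult animals of ARHGAP12 were widely spread, and it was not called without adult array 2 or 3 or six-month array 9 or 10 (adjusted p = 0.0607 to 0.073).

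The other large falls were those of RPS6KB1, ANKRD50, CTXND1, HMGCS1 and TOP1. RPS6KB1, the S6 kinase that acts downstream of mTOR complex 1, was at 6.95, 6.71, 7.28 and 7.11 in adults, against 8.12, 8.12, 8.03 and 8.05 at 6 months, a fall of 1.07 (SE 0.13, adjusted p = 0.000415). The six-month values lay close together, and both other probe sets shared its direction. ANKRD50, an ankyrin repeat protein of endosomal recycling, was at 7.77, 6.6, 7.19 and 7.11 in adults, against 8.43, 8.36, 8.25 and 8.47 at 6 months, a fall of 1.21 (SE 0.17, adjusted p = 0.00118). CTXND1, a cortexin domain gene, was at 8.46, 7.69, 8.48 and 7.94 in adults, against 9.31, 9.10, 9.21 and 9.55 at 6 months, a fall of 1.15 (SE 0.20, adjusted p = 0.00728). All 3 stayed called when any 1 animal was left out. HMGCS1, an early enzyme of cholesterol synthesis, was at 8.30, 7.72, 8.48 and 8.42 in adults, against 9.34, 9.75, 9.27 and 8.77 at 6 months, a fall of 1.05 (SE 0.25, adjusted p = 0.0344). TOP1, DNA topoisomerase I, was at 6.72, 5.90, 6.6 and 6.81 in adults, against 7.54, 7.31, 7.09 and 8.29 at 6 months, a fall of 1.05 (SE 0.24, adjusted p = 0.0343). Both were fragile. HMGCS1 was not called without adult array 2, 3 or 4 or six-month array 9, 10 or 11 (adjusted p = 0.0541 to 0.106). TOP1 was not called without adult array 2 or 3 or six-month array 9, 10 or 12 (adjusted p = 0.0542 to 0.0997), and its 1 other probe set moved the opposite way.

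The greatest named rise was that of VAMP1, a vesicle SNARE protein of transmitter release. VAMP1 was at 8.66, 9.30, 8.56 and 9.33 in adult CA1, against 6.97, 7.69, 7.62 and 7.13 at 6 months, a rise of 1.61 (SE 0.19, adjusted p = 0.000236). The groups were clearly separate, both other probe sets shared its direction, and the gene was called in each alternative fit. VAMP1 also rose in DG (0.61, adjusted p = 0.0053), EC (0.96, adjusted p = 0.00912) and Sub (1.28, adjusted p = 0.0103). SYNDIG1, which regulates AMPA receptor content at developing synapses, was at 9.21, 9.26, 9.34 and 9.5 in adults, against 8.49, 8.30, 8.40 and 8.42 at 6 months, a rise of 0.93 (SE 0.12, adjusted p = 0.000495). Its values were among the tightest of the named genes, and it too was called in each alternative fit.

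The aldo-keto reductases AKR1C2, AKR1C1 and AKR1B10 rose. These enzymes reduce steroid ketones and reactive carbonyls with NADPH. AKR1C2, which makes neurosteroids such as allopregnanolone, was at 8.47, 8.94, 8.95 and 8.60 in adults, against 7.84, 7.68, 7.42 and 7.64 at 6 months, a rise of 1.09 (SE 0.14, adjusted p = 0.000415). AKR1C1, which inactivates progesterone, was at 9.31, 9.70, 9.61 and 9.34 in adults, against 8.37, 8.51, 8.16 and 8.58 at 6 months, a rise of 1.08 (SE 0.16, adjusted p = 0.00231). AKR1B10, an aldehyde and retinal reductase, was at 7.23, 5.93, 6.95 and 6.17 in adults, against 5.52, 5.66, 5.32 and 5.32 at 6 months, a rise of 1.12 (SE 0.20, adjusted p = 0.0101). No groups overlapped, and adult arrays 1 and 3 were the highest for AKR1B10. AKR1C1 and AKR1C2 are near-identical and were read by probe sets marked as able to bind related transcripts, so their signals cannot be fully separated. AKR1C2 rose in DG (0.82, adjusted p = 0.00605), EC (0.66, adjusted p = 0.0298) and Sub (0.54, adjusted p = 0.0485) as well.

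ADSS1, GSTO1, SLC47A1 and FOLR1 rose. ADSS1, an adenylosuccinate synthase of purine nucleotide metabolism, was at 6.99, 7.73, 7.85 and 7.58 in adults, against 6.53, 5.73, 5.57 and 6.30 at 6 months, a rise of 1.5 (SE 0.24, adjusted p = 0.00407). GSTO1, a glutathione transferase of the omega class, was at 10.02, 10.21, 9.97 and 10.72 in adults, against 9.26, 9.03, 9.34 and 9.0 at 6 months, a rise of 1.07 (SE 0.18, adjusted p = 0.00564). SLC47A1, an exporter of organic cations and toxins, was at 7.21, 7.09, 7.17 and 7.22 in adults, against 6.40, 6.11, 6.34 and 5.97 at 6 months, a rise of 0.97 (SE 0.13, adjusted p = 0.000495). The 3 genes had separate groups and stayed called when any 1 animal was left out. FOLR1, the folate receptor alpha, which is abundant in choroid plexus, was at 7.71, 8.05, 8.90 and 9.01 in adults, against 7.67, 7.01, 6.94 and 7.46 at 6 months, a rise of 1.15 (SE 0.25, adjusted p = 0.0242). The groups of FOLR1 nearly touched, its 1 other probe set moved the opposite way, and it was not called without adult array 3 or 4 or six-month array 10 or 11 (adjusted p = 0.057 to 0.0787). TTR and KL, both defining genes of choroid plexus, were low and did not pass. TTR had 6.33 to 6.85 in adults and 5.87 to 6.52 at 6 months, and KL had 4.79 to 5.37 in adults and 4.67 to 5.22 at 6 months.

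IGFBP5, a binding protein of insulin-like growth factors, was at 7.40, 7.95, 7.95 and 7.57 in adults, against 6.84, 6.57, 7.23 and 6.34 at 6 months, a rise of 0.97 (SE 0.19, adjusted p = 0.0141), with 4 of 5 other probe sets sharing that direction. RPL27A, a protein of the large ribosomal subunit, was at 9.80, 10.26, 9.89 and 10.43 in adults, against 9.38, 9.28, 9.13 and 7.24 at 6 months, a rise of 1.34 (SE 0.32, adjusted p = 0.0356). Array number 12 lay almost 2 log2 units below the other six-month arrays, and without it the rise was 0.83 (adjusted p = 0.015). RPL27A was not called without adult array 2, 3 or 4 (adjusted p = 0.0648 to 0.0975). RSRC1, a splicing factor, was at 8.41, 8.16, 8.03 and 7.81 in adults, against 7.34, 7.61, 7.32 and 6.40 at 6 months, a rise of 0.93 (SE 0.20, adjusted p = 0.0253). Both of its other probe sets moved the opposite way, and it was not called without adult array 2 or 3 (adjusted p = 0.051 to 0.0591).

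**Figure D2:**
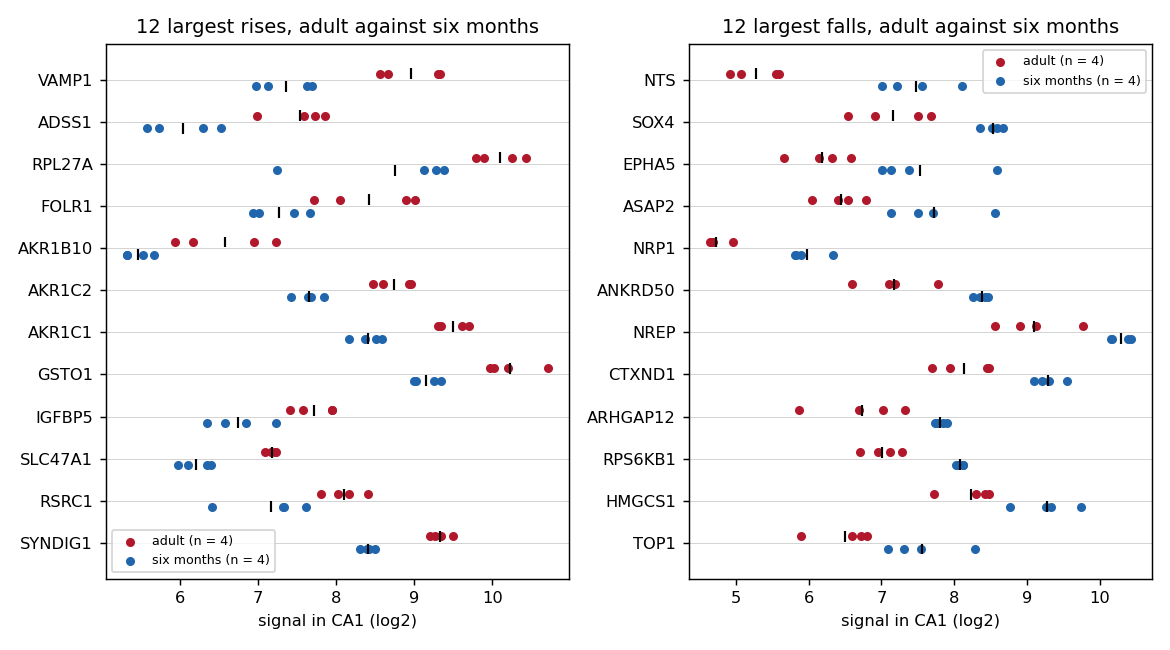
Log2 signal of the 12 largest named rises (left) and falls (right) in each of the 4 adult and 4 six-month CA1 arrays; black ticks are group means. The groups of all 24 genes are separate by the rule that chose them, and 1 six-month array lies far to the left for RPL27A (7.24) and far to the right for EPHA5 (8.59).

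Among 34 genes of immature neurons and neurite outgrowth, 6 were lower in adults and 1 was higher. Over all genes 1.07% were called lower and 0.875% higher, 1.94% in all, and every count of calls in a list below is to be read beside these shares. A single call in a list of about this size is near them and says nothing about the list. List counts at an unadjusted p under 0.05 are to be read beside the 15.7% of all genes at that level. The median change of the 34 genes was −0.22, against 0.01 over all genes, and 26 of 34 members were below 0. With that median, about as many of all genes lay above 0 as below. Members of a list were read on the same arrays. Counts of members above or below 0, here and in later lists, are therefore not independent measurements. Beside SOX4, NREP and SOX11 the falls were those of DCLK1, STMN2 and CD24. DCLK1, a doublecortin-like kinase on microtubules, was at 10.61, 10.53, 10.72 and 10.60 in adults, against 11.25, 11.41, 11.06 and 10.99 at 6 months (−0.56, SE 0.11, adjusted p = 0.0139). STMN2, a tubulin-binding protein of growth cones, was at 12.74, 12.64, 12.69 and 12.60 in adults, against 13.01, 13.30, 13.20 and 12.91 at 6 months (−0.44, SE 0.10, adjusted p = 0.0336). CD24, a surface glycoprotein of differentiating neurons, changed by −0.88 (adjusted p = 0.045), and its groups overlapped. The member that rose was SLIT1, a repulsive guidance ligand, by 0.55 (adjusted p = 0.0402). CD24 and SLIT1 fall outside the rule for named genes and were named after their values were seen. DCX, the doublecortin of migrating neurons, had 7.62 to 8.01 in adults and 7.85 to 8.42 at 6 months and did not pass (−0.43, adjusted p = 0.0969). DCLK1 lost its call without six-month array 10 (adjusted p = 0.0513), and STMN2 lost it in 5 of 8 fits that left out 1 animal (adjusted p up to 0.104, without six-month array 10).

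Metallothioneins and genes of the oxidative stress response held 6 rises and 1 fall among 31 members, with a median change of 0.26 and 23 members above 0. The rises were NQO1, MT1X, MT2A, MT1E, MT1H and PRDX6, the last pair named after their values were seen. NQO1, a quinone reductase and a target of the factor NRF2, was at 8.08, 7.95, 7.71 and 7.30 in adults, against 6.86, 6.54, 7.30 and 6.43 at 6 months, a rise of 0.98 (SE 0.18, adjusted p = 0.0106). Only adult array 4 and six-month array 11 met. MT1X, a metal-binding metallothionein, was at 10.65, 10.70, 10.78 and 10.80 in adults, against 9.60, 10.18, 9.72 and 10.25 at 6 months, a rise of 0.79 (SE 0.17, adjusted p = 0.0244). MT2A rose by 0.71 (adjusted p = 0.0283), MT1E by 0.63 (adjusted p = 0.0306), MT1H by 0.73 (adjusted p = 0.0411) and the peroxiredoxin PRDX6 by 0.79 (adjusted p = 0.0459). Metallothionein copies share most of their sequence and were read by probe sets that can bind related transcripts, so these are not independent measurements. NQO1 stayed called when any 1 animal was left out, while MT1X, MT2A and MT1E lost the call in 5, 3 and 6 of 8 such fits (adjusted p up to 0.0681, 0.0769 and 0.0781). NFE2L2, which encodes NRF2, did not pass (−0.37, adjusted p = 0.166).

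The fall in that list was TFRC, the transferrin receptor of cellular iron uptake. TFRC was at 7.49, 7.09, 7.51 and 7.58 in adults, against 8.82, 8.33, 8.25 and 8.29 at 6 months, and fell by 1.0 (SE 0.15, adjusted p = 0.00262). The groups were separate, and TFRC remained called with each animal left out and with the ACTB ratio as covariate (adjusted p = 0.012). It fell by 0.94 in EC (adjusted p = 0.00291) and by 0.86 in Sub (adjusted p = 0.0297) as well, and 2 of its 4 other probe sets shared its direction.

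Genes of steroid and stress signalling held 4 rises and 1 fall among 34, with a median of −0.05. Beside AKR1C1 and AKR1C2, CYP46A1 and RXRA rose. CYP46A1, the neuronal hydroxylase that clears brain cholesterol, was at 9.78, 10.36, 10.19 and 10.30 in adults, against 9.72, 9.30, 9.78 and 8.75 at 6 months, a rise of 0.77 (SE 0.18, adjusted p = 0.0337). The highest six-month value nearly touched the lowest adult value. RXRA, the shared partner of nuclear receptors, rose by 0.50 (adjusted p = 0.0426). DIO2, the deiodinase that activates thyroid hormone in astrocytes, was at 8.69, 8.40, 8.61 and 8.26 in adults, against 9.13, 9.0, 9.32 and 8.93 at 6 months, a fall of 0.60 (SE 0.12, adjusted p = 0.0168). DIO2 lost its call without adult array 4 (adjusted p = 0.0536), CYP46A1 in 4 of 8 fits and RXRA in 5 of 8 (adjusted p up to 0.0885 and 0.113). In cholesterol synthesis HMGCS1 was the 1 call among 18 genes, with a median of −0.10 and 14 members below 0.

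Oxidative phosphorylation had 3 calls higher and 0 lower among 34 genes, with a median of 0.22 and 25 members above 0. All 3 encode subunits of complex I. NDUFB8 was at 11.70, 12.06, 12.08 and 12.00 in adults, against 11.39, 11.20, 11.36 and 11.51 at 6 months, a rise of 0.59 (SE 0.13, adjusted p = 0.0256). NDUFA1 rose by 0.67 (adjusted p = 0.0301) and NDUFA9 by 0.60 (adjusted p = 0.0406). The 3 lost the call in 4, 4 and 5 of 8 fits with 1 animal left out (adjusted p up to 0.0823, 0.0887 and 0.115). Of 35 ribosomal protein genes 33 were above 0, with a median of 0.23, but 1 passed. That list does not hold RPL27A, described above among the largest rises. RPS27 of the small subunit was at 12.70, 12.59, 12.44 and 12.63 in adults, against 12.30, 12.02, 12.15 and 11.37 at 6 months, a rise of 0.63 (SE 0.16, adjusted p = 0.045), and array number 12 was the lowest. RPS27 lost the call in 6 of 8 such fits (adjusted p up to 0.0975, without adult array 4). None of 25 glycolysis genes passed in limma, with 3 at an unadjusted p under 0.05, a level that 15.7% of all genes reached. PGK1, a glycolytic kinase, had a difference of 0.39 (adjusted p = 0.263), and PDK2, an inhibitor of pyruvate entry into mitochondria, one of 0.41 (adjusted p = 0.285).

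Synaptic genes that passed were mostly lower in adults. In the postsynaptic density 3 of 31 genes fell and 0 rose, with a median of −0.12. NRXN3, a presynaptic adhesion protein listed there, was at 8.36, 8.31, 8.42 and 8.62 in adults, against 9.17, 9.57, 8.64 and 9.11 at 6 months, a fall of 0.70 (SE 0.15, adjusted p = 0.0261). SORCS3, a sorting receptor abundant in CA1, was at 6.02, 5.03, 5.82 and 6.48 in adults, against 6.77, 6.28, 6.92 and 7.28 at 6 months, a fall of 0.98 (SE 0.23, adjusted p = 0.0352). KALRN, which encodes kalirin, a protein of dendritic spines, fell by 0.56 (adjusted p = 0.0387). Adult array 4 overlapped the six-month range of SORCS3, and the 3 genes lost the call in 4, 5 and 5 of 8 fits with 1 animal left out (adjusted p up to 0.083, 0.0897 and 0.103). Among synaptic vesicle genes VAMP1 was the 1 call of 34, and its relative VAMP2 did not pass (−0.29, adjusted p = 0.234).

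Of the glutamate receptors, GRIN2B and GRM5 fell. GRIN2B, the NMDA receptor subunit that predominates early in life, was at 7.78, 7.47, 7.89 and 7.73 in adults, against 8.36, 8.29, 8.14 and 8.21 at 6 months, a fall of 0.53 (SE 0.13, adjusted p = 0.0387). Its mean had been 8.22 in newborns and was 8.28 at one year, so the lower signal was seen in adults. GRIN2A, the subunit that joins NMDA receptors later, had 9.85 to 10.50 in adults and 10.60 to 10.90 at 6 months, a difference of −0.46 that did not pass (adjusted p = 0.102). GRM5, a metabotropic receptor of the postsynaptic rim, was at 9.41, 9.30, 9.25 and 9.11 in adults, against 9.76, 9.73, 9.75 and 10.04 at 6 months, a fall of 0.55 (SE 0.12, adjusted p = 0.0232). None of 22 AMPA and kainate receptor genes passed in limma. At an unadjusted p under 0.05 were 7, 6 of them lower, beside 15.7% of all genes. GRIA2, the subunit that blocks calcium entry, was at 11.12, 10.86, 10.69 and 10.50 in adults, against 11.35, 11.24, 11.35 and 11.38 at 6 months (−0.54, adjusted p = 0.0538), and GRIA1 differed by −0.46 (adjusted p = 0.0892). In both the groups were separate. Without 1 animal GRIN2B lost the call in 4 and GRM5 in 2 of 8 fits (adjusted p up to 0.105 and 0.0656).

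Single members of other receptor and channel lists passed. GPHN, the gephyrin scaffold of inhibitory synapses, fell by 0.65 (SE 0.16, adjusted p = 0.0432), the 1 call of 15 GABA receptor genes, whose median was −0.21. CNR1, the cannabinoid receptor of axon terminals, fell by 0.63 (SE 0.15, adjusted p = 0.0394), the 1 call of 36 in its list, and its 3 other probe sets all moved the opposite way. KCNC1, the fast potassium channel Kv3.1, rose by 0.67 (adjusted p = 0.0407), with adult array 1 (6.98) inside the six-month range. KCNAB1, an auxiliary potassium channel subunit, fell by 0.65 (adjusted p = 0.0496). CACNB3, a calcium channel subunit, rose by 0.52 (adjusted p = 0.0277), and SCN2A, the sodium channel Nav1.2 of axons, fell by 0.50 (adjusted p = 0.0372). The medians of 37 potassium channel genes (0.02) and 29 sodium, calcium and HCN channel genes (0.01) were close to that of all genes (0.01). Among 42 genes of calcium binding and kinase signalling, ATP2B1, a plasma membrane calcium pump, fell by 0.57 (adjusted p = 0.0189) and CAMK4, a nuclear calcium-dependent kinase, by 0.68 (adjusted p = 0.0409). SCG3, a granin of dense-core vesicles, fell by 0.64 (adjusted p = 0.0189) and was with NTS the call of 43 neuropeptide genes. Each of these genes other than NTS lost its call in 1 or more fits without 1 animal, from 1 of 8 for ATP2B1 to 7 of 8 for KCNC1, with adjusted p up to 0.142.

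Growth factors and matrix gave few calls. VEGFA, the main vascular growth factor, was at 6.65, 6.80, 6.66 and 6.50 in adults, against 7.83, 7.79, 7.39 and 7.39 at 6 months, a fall of 0.95 (SE 0.18, adjusted p = 0.0127). The groups were separate, and VEGFA held with any 1 animal left out. FGF13, an intracellular regulator of sodium channels, fell by 0.53 (adjusted p = 0.0201), and with IGFBP5 these were the calls of 32 growth factor genes. TNC, the matrix glycoprotein tenascin-C, was at 5.59, 5.71, 5.59 and 5.95 in adults, against 6.36, 6.43, 6.14 and 6.89 at 6 months, a fall of 0.75 (SE 0.15, adjusted p = 0.0189), the 1 call of 28 matrix genes. KLF10, a factor induced by TGF beta, was the 1 call of 32 immediate early genes, a fall of 1.07 (SE 0.20, adjusted p = 0.0103), with adult array 3 (7.37) above six-month array 12 (7.32). FOS had 4.96 to 6.15 in adults and 5.73 to 6.40 at 6 months and did not pass (adjusted p = 0.266). MCM7, a replication licensing factor, rose by 0.47 (adjusted p = 0.0432), the 1 call of 32 proliferation genes. TNC lost its call without adult array 3 (adjusted p = 0.0562), FGF13 without adult array 4 or six-month array 10, and MCM7 in 6 of 8 fits.

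**Figure D3:**
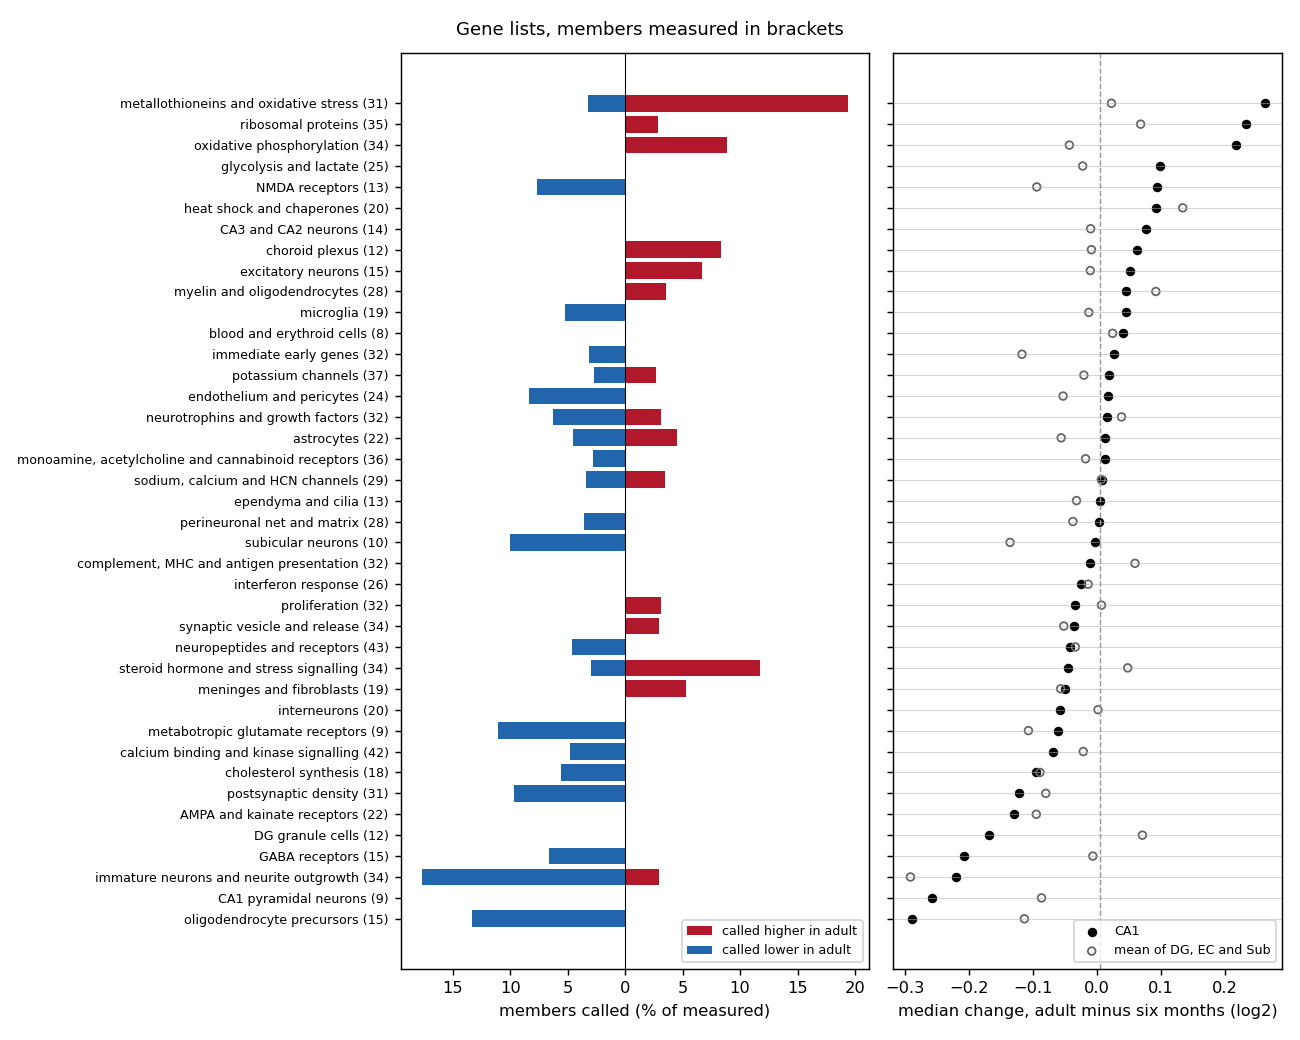
For 40 gene lists, the share of measured members called higher or lower in adult CA1 (left, lower drawn leftwards, counts measured in brackets) and the median change of all members in CA1 and averaged over DG, EC and Sub (right; dashed line, median of all genes, 0.01). Metallothioneins and oxidative stress genes have the highest median (0.26) and oligodendrocyte precursor genes the lowest (−0.29).

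Oligodendrocyte precursor genes had 2 falls and 0 rises among 15, with a median of −0.29. Their mean level per array was 6.99 to 7.15 in adults and 7.21 to 7.48 at 6 months. The list has the lowest median of the 40 in these same arrays, and such means are not given for other lists. The separate ranges are therefore no evidence beyond that median. OLIG1 (0.04), CSPG4 (0.01) and PCDH15 (0.03) were above 0, and the other members were below, TNR (−0.001) and COL9A1 (−0.02) only slightly. SOX6, a transcription factor that keeps precursors immature, was at 6.62, 6.37, 6.48 and 6.97 in adults, against 7.35, 7.65, 7.52 and 7.41 at 6 months, a fall of 0.87 (SE 0.14, adjusted p = 0.00319), with 5 of 7 other probe sets sharing that direction. PDGFRA, the growth factor receptor of precursors, was at 9.64, 9.78, 9.59 and 9.48 in adults, against 10.52, 10.79, 10.10 and 9.92 at 6 months, a fall of 0.71 (SE 0.15, adjusted p = 0.024). None of its 3 other probe sets shared its direction, and the mean of all its probe sets changed by 0.02 (adjusted p = 0.928). PDGFRA lost its call in 4 of 8 fits without 1 animal (adjusted p up to 0.0787, without six-month array 10). Myelin and oligodendrocyte genes had 1 rise among 28 and a median of 0.05. That rise was CNDP1, a carnosinase of oligodendrocytes, at 6.09, 7.01, 6.48 and 6.57 in adults, against 5.85, 5.76, 5.38 and 5.79 at 6 months (0.84, SE 0.16, adjusted p = 0.0123). MBP had 8.90 to 9.20 in adults and 8.48 to 11.06 at 6 months.

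Astrocyte genes had 1 rise and 1 fall among 22. ATP1B2, a sodium pump subunit, was at 9.05, 9.94, 9.64 and 9.44 in adults, against 8.80, 8.67, 9.12 and 7.64 at 6 months, a rise of 0.96 (SE 0.24, adjusted p = 0.0409) that became 0.66 without six-month array 12 (adjusted p = 0.0553) and lost its call in 6 of 8 fits without 1 animal. SLC4A4, a bicarbonate cotransporter, fell by 0.63 (SE 0.14, adjusted p = 0.024). P2RY12, the purine receptor of resting microglia, was at 6.47, 6.19, 6.16 and 6.18 in adults, against 7.34, 7.41, 7.02 and 7.38 at 6 months, a fall of 1.04 (SE 0.13, adjusted p = 0.000409). It was the 1 call of 19 microglial genes, whose median was 0.04. CX3CR1, another microglial receptor, differed by −0.25 (adjusted p = 0.395), and AIF1, a microglial calcium-binding protein, by 0.08 (adjusted p = 0.866). P2RY12 held with any 1 animal left out and with the ACTB ratio as covariate (adjusted p = 0.012). In endothelium and pericytes FLT1, a VEGF receptor, and RGS5, a pericyte regulator of G proteins, both fell by 0.54 (adjusted p = 0.0275 and 0.0347), the calls of 24 genes, with a median of 0.02 and CLDN5, the tight junction claudin, at −0.08 (adjusted p = 0.819). Of these genes SLC4A4 lost its call in 3, FLT1 in 2 and RGS5 in 6 of 8 fits without 1 animal (adjusted p up to 0.0787, 0.0841 and 0.0925).

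Among neuronal markers NEFH, the heavy neurofilament of large axons, rose. NEFH was at 7.98, 8.07, 8.30 and 9.06 in adults, against 7.53, 7.43, 7.56 and 7.50 at 6 months, a rise of 0.85 (SE 0.21, adjusted p = 0.0432), which was 0.61 without adult array 4 (adjusted p = 0.119) and lost its call in 6 of 8 such fits. None of 9 CA1 pyramidal markers passed in limma. Their median was −0.26, and 4 were at an unadjusted p under 0.05, as were 15.7% of all genes. NDST4, a heparan sulfate enzyme, was at 7.35, 6.28, 5.98 and 6.71 in adults, against 7.81, 8.09, 7.49 and 6.95 at 6 months (−1.01, adjusted p = 0.0761), and MAN1A1 differed by −0.36 (adjusted p = 0.154). None of 12 DG granule cell, 14 CA3 and CA2, or 20 interneuron markers passed, with 1, 3 and 5 at an unadjusted p under 0.05. The smallest p in these lists belonged to STXBP6 (−0.39) and DSP (0.34), to NECAB1 (0.44) and NPTX1 (0.58), and to ERBB4 (−0.47) and TAC1 (−0.64). SLC47A1 was the 1 call of 19 meningeal genes, while the collagen gene COL1A2 differed by −0.06 and DCN by 0.07. None of 13 ependymal, 8 blood, 32 complement and MHC, 26 interferon or 20 heat shock genes passed. At an unadjusted p under 0.05 were 4, 0, 7, 3 and 10, again beside 15.7% of all genes. Complement genes SERPING1 (0.61, adjusted p = 0.054) and C1QB (0.63, adjusted p = 0.0644) and the chaperones CRYAB (0.74, adjusted p = 0.0617) and HSPD1 (−0.42, adjusted p = 0.0754) came nearest. In the other lists the smallest p belonged to RSPH1 (−0.36) and ARMC3 (−0.33) of cilia, AHSP (−0.15) and ALAS2 (0.13) of erythroid cells, and the interferon genes BST2 (−0.37) and IFI6 (0.40).

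The one-year arrays place the changes in time, though few genes passed within a single step. From 6 months to one year 8 genes passed (0.0405%), with 1994 at an unadjusted p under 0.05 (10.1%), and from one year to adult 16 passed (0.0809%), with 2046 unadjusted (10.3%). Both steps share the one-year arrays.

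NTS completed its fall by one year. Newborns had a mean of 9.03, 6-month-olds 7.47, one-year-olds 5.13 and adults 5.28, a step of −2.34 (SE 0.21, adjusted p = 6.21e-06) followed by 0.15 (adjusted p = 0.853). P2RY12 (−0.72, adjusted p = 0.0495) and SLC6A15 (−0.83, adjusted p = 0.0301), a neuronal amino acid transporter, also fell in the first step. AFTPH, a clathrin trafficking protein, fell by 0.99 in that step (adjusted p = 0.0463) and was not called between 6 months and adult (adjusted p = 0.116). AKR1C2 (0.79, adjusted p = 0.0463), WWP2 (0.66, adjusted p = 0.0217), a ubiquitin ligase, and TULP4 (0.80, adjusted p = 0.0495) rose in it.

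SOX4, VEGFA, CTXND1 and NRP1 fell after one year. SOX4 had means of 9.66, 8.54, 8.42 and 7.16 from newborn to adult, and its last step was −1.26 (SE 0.18, adjusted p = 0.0102). VEGFA had means of 7.02, 7.60, 7.86 and 6.65 at the same ages, with a last step of −1.21 (SE 0.18, adjusted p = 0.0102). CTXND1 (−1.06, adjusted p = 0.0478) and NRP1 (−0.99, adjusted p = 0.0102) had last steps of similar size. KMT2E, a chromatin regulator, rose by 1.04 (adjusted p = 0.0102) in the last step, as did the ion channel gene TRPM3 (0.94, adjusted p = 0.0478), the mTOR inhibitor DEPTOR (0.83, adjusted p = 0.0447) and TAGLN3 (0.82, adjusted p = 0.0432), a neuronal actin-associated protein. None of these 4 was called between 6 months and adult, and their one-year means lay below those of 6 months. The last step had 6 and 8 calls without adult arrays 2 and 4, and 7 and 5 without one year arrays 6 and 7. Without one year array 5 it had 0 calls in limma, with 1820 genes at an unadjusted p under 0.05. The first step had 4 calls without one year array 5 or 7, 5 without six-month array 12, and 1 without one year array 6 or 8 or six-month array 10 or 11.

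Some genes turned at or after 6 months and others went on in one direction. From newborn to 6 months 1641 genes passed (8.3%), and this step shares the six-month arrays with the comparison above, so values are given side by side. Error in the six-month arrays enters both differences with opposite sign, which by itself favours an apparent turn. NTS fell by 1.56 (adjusted p = 0.000167) and SOX4 by 1.12 (adjusted p = 0.000837) in that early step, before their later falls. IGFBP5 fell by 1.26 between newborn and 6 months (adjusted p = 0.000499) before it rose, with means of 8.01, 6.75, 7.36 and 7.72. TFRC rose by 0.78 (adjusted p = 0.00337) before it fell, with means of 7.64, 8.42, 8.39 and 7.42. The pericyte gene RGS5 also rose first, by 0.42 (adjusted p = 0.0409), but the call of its later fall was lost in 6 of 8 fits without 1 animal. The newborn arrays had a GAPDH ratio of 1.37 and the six-month arrays one of 2.74, and its part in the early step was not tested.

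**Figure D4:**
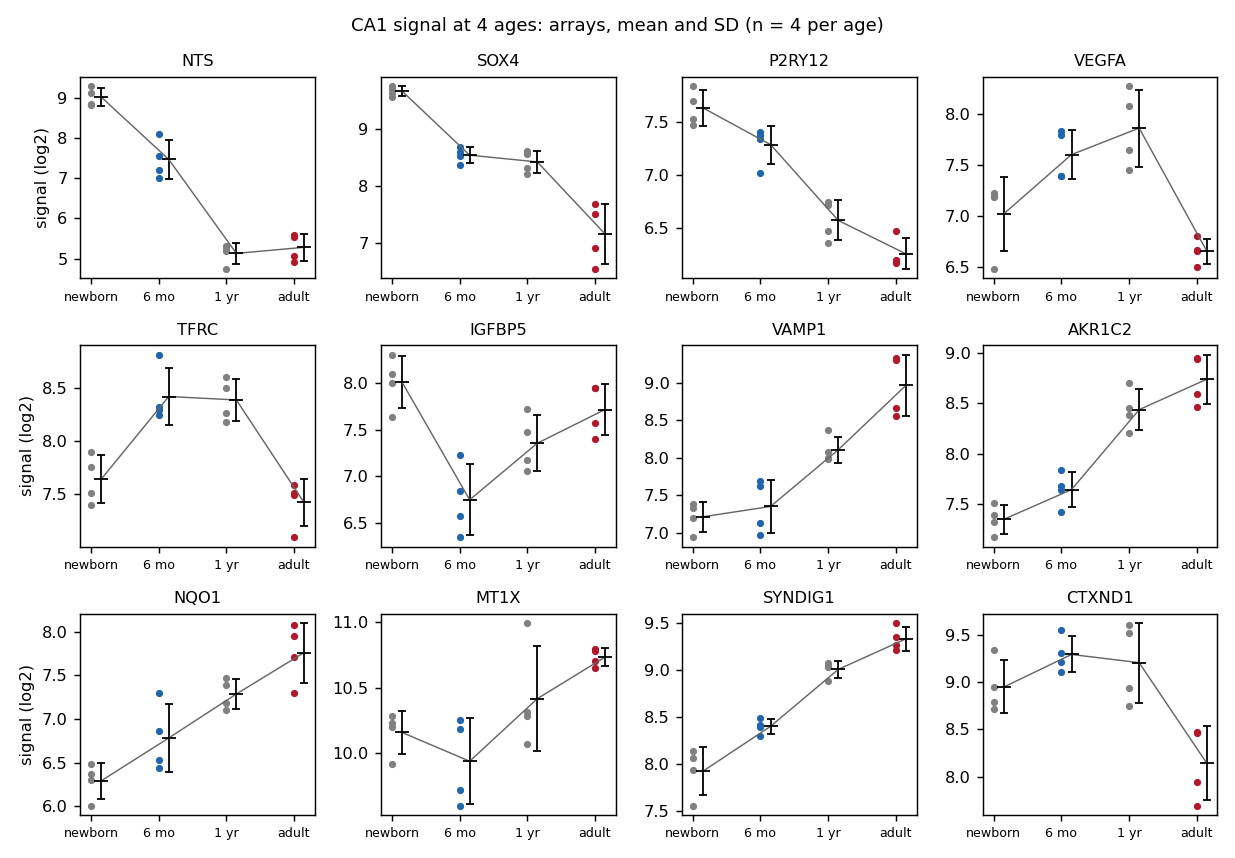
CA1 log2 signal of 12 named genes at 4 ages, with each array as a point and the mean and SD of 4 arrays beside it; adult points are red and 6 months points blue. NTS reached its adult level by one year (5.13, adult 5.28), SOX4, VEGFA and CTXND1 dropped after one year, and IGFBP5 and TFRC turned at or after 6 months.

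The change in CA1 was then set against the mean change in DG, EC and Sub, adult minus 6 months. The regions come from the same animals, on arrays of their own. The test of that difference passed for 534 genes (2.7%), 304 above 0 (1.54%) and 230 below 0 (1.16%). That fit took the arrays as unpaired. With the array number as a replicate block 641 genes passed, 246 above 0 and 395 below 0, and 344 of them were among the 534, while the 10 genes with the largest named differences stayed called. Genes called in CA1 had the same sign of change in 58.6% of cases in DG, 56.5% in EC and 73.4% in Sub, against 50.7%, 49.8% and 54.4% of all genes. In CA3, whose adult GAPDH ratio was 2.70 against 1.12 at 6 months, 85.7% had the same sign, against 59.6% of all genes. Within DG 4.23% of all genes were called, within EC 1.48% and within Sub 2.2%. Called in both were 31 genes for DG (8.07% of the CA1 calls, 3.70% of the 837 DG calls), 29 for EC (7.55%, 9.90% of 293) and 29 for Sub (7.55%, 6.65% of 436). For CA3 they were 186 (48.4% of the CA1 calls, 3.66% of the 5086 CA3 calls), and 25.7% of all genes were called there. CA3 was left out of the test of the difference for its ratio. With single regions as comparator the count was 108 for DG, 210 for EC and 45 for Sub. It was 925 without the adult Sub array whose GAPDH ratio was 2.98, 1101 without CA1 adult array 1, 1050 without CA1 six-month array 12, 308 and 339 without CA1 adult arrays 3 and 4, and 321 and 199 without CA1 six-month arrays 9 and 10.

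NTS fell in CA1 and Sub, and its changes in DG and EC did not pass. Its change was −2.19 in CA1, −1.85 in Sub (adjusted p = 0.0297), −0.12 in DG and 0.02 in EC, and the difference from the mean of the 3 was −1.54 (SE 0.34, adjusted p = 0.0109). Against Sub alone the difference was −0.34 (adjusted p = 0.812). RPS6KB1 had the next most negative difference, −1.26 (SE 0.23, adjusted p = 0.00251), with changes of −0.09 in DG, 0.33 in EC and 0.33 in Sub. RICTOR, the defining subunit of mTOR complex 2, was at 8.19, 6.98, 6.99 and 8.07 in adult CA1, against 8.66, 8.63, 8.50 and 8.39 at 6 months, a fall of 0.99 (adjusted p = 0.0256). Its difference from the other regions was −1.22 (SE 0.25, adjusted p = 0.00698), though none of its 3 other probe sets shared its direction in CA1. CTXND1 (−1.22, adjusted p = 0.00114) and ARHGAP12 (−1.19, adjusted p = 0.0223) had differences of like size. Against single regions RPS6KB1 lost its call with DG (adjusted p = 0.057), CTXND1 with EC (adjusted p = 0.067), RICTOR with DG and Sub, and ARHGAP12 with each of the 3.

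Above the other regions were ADSS1, MARCKSL1, FOXO6, ANKRD9 and EEF1A2. ADSS1 rose by 1.5 in CA1, with 0.23 in DG, 0.06 in EC and 0.22 in Sub, a difference of 1.33 (SE 0.29, adjusted p = 0.0106). ANKRD9, an ankyrin repeat gene, was at 6.41, 6.67, 6.84 and 6.96 in adult CA1, against 6.23, 6.18, 5.47 and 5.96 at 6 months, a rise of 0.76 (adjusted p = 0.0313), and its difference was 1.11 (SE 0.18, adjusted p = 0.000623). Both of its other probe sets moved the opposite way in CA1. MARCKSL1, an actin-regulating substrate of protein kinase C, differed by 1.31 (SE 0.26, adjusted p = 0.00466). It fell in DG (−1.62, adjusted p = 2.7e-06) and Sub (−0.85, adjusted p = 0.0164), while the CA1 change of 0.34 did not pass (adjusted p = 0.49). EEF1A2, a neuronal translation elongation factor, differed by 1.08 (adjusted p = 0.0386) with a CA1 change of 0.16 (adjusted p = 0.828). FOXO6, a forkhead factor of hippocampal neurons, differed by 1.15 (adjusted p = 0.046) with a CA1 change of 0.87 (adjusted p = 0.0803), and by 0.75 without CA1 six-month array 12 (adjusted p = 0.142). Against single regions the number of calls was 1 of 3 for ADSS1, 1 of 3 for MARCKSL1, 2 of 3 for ANKRD9 and 0 of 3 for EEF1A2 and FOXO6.

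For genes of immature neurons the other regions differed among themselves. SOX4 changed by −1.98 in DG (adjusted p = 2.7e-06), by −1.53 in Sub (adjusted p = 0.000149) and by −0.54 in EC (adjusted p = 0.0988), and its CA1 change differed from the mean of the 3 regions by −0.03 (adjusted p = 0.959). SOX11 changed by −2.18 in DG (adjusted p = 2.7e-06), −0.70 in Sub (adjusted p = 0.034) and −0.21 in EC (adjusted p = 0.699), beside −0.81 in CA1, and its difference of 0.22 did not pass (adjusted p = 0.589). The matrix gene TNC changed by −1.46 in DG (adjusted p = 2.7e-06), −1.47 in Sub (adjusted p = 0.000222) and −0.70 in EC (adjusted p = 0.223), beside −0.75 in CA1, and its difference of 0.46 did not pass (adjusted p = 0.257). The median of the immature neuron list was −0.29 over DG, EC and Sub and −0.22 in CA1. For oxidative phosphorylation the medians were −0.04 over the 3 regions and 0.22 in CA1, and for metallothioneins and oxidative stress 0.02 and 0.26. NDUFA9 (0.69, adjusted p = 0.0182), NDUFB8 (0.48, adjusted p = 0.0448), MT1E (0.65, adjusted p = 0.0432) and PGK1 (0.67, adjusted p = 0.0215) passed the test of the difference between regions, in the direction of a higher change in CA1. NQO1 did not (0.13, adjusted p = 0.782), and rose in DG (0.73), EC (0.87) and Sub (0.96), with adjusted p of 0.00628, 0.0155 and 0.00342.

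**Figure D5:**
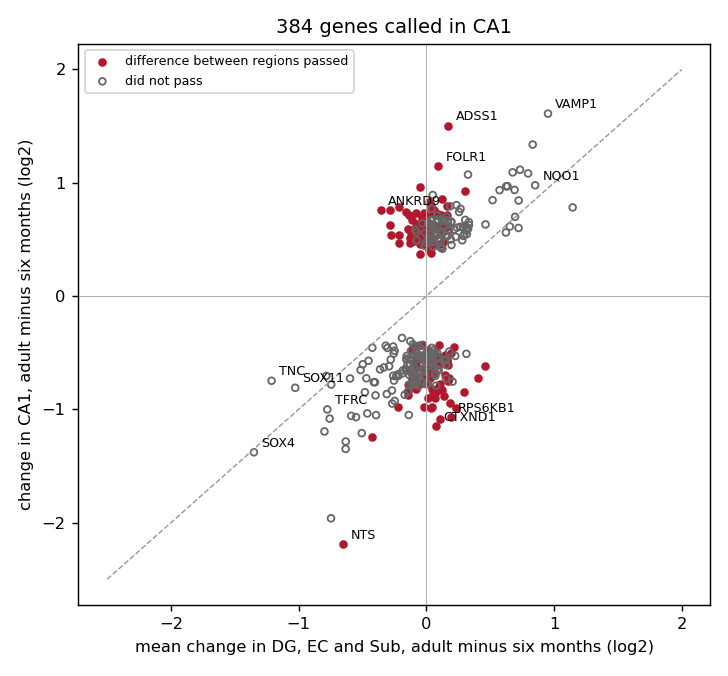
Change in CA1 against the mean change in DG, EC and Sub, both adult minus 6 months in log2 units, for the 384 genes called in CA1; filled points are genes whose difference between regions passed (that test uses the CA1 arrays too) and the dashed line marks equal change. SOX4 lies on the line (difference −0.03), while ADSS1 lies 1.33 above it and NTS 1.54 below it.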

How the data were processed

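Each of the 80 arrays, of human design, carries a log2 value for 54675 probe sets as deposited. How the authors summarised and scaled the probes is not given in the sources used here. Per the labels' protocols, Trizol RNA was labelled with biotin in 2 amplification cycles. Array quartiles spread over 0.120, 0.106 and 0.120 log2, above a limit of 0.05, so all 80 arrays were quantile normalized together. Of the probe sets 41091 had 1 gene symbol, and the one with the highest mean over all arrays stood for a gene, which gave 19775 genes with none filtered.

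Adult minus 6 months was fitted with limma 3.58.1 (R 4.3.3; lmFit, eBayes) on the 16 CA1 arrays, with 4 age means, 12 residual degrees of freedom and no block. Adjustment was by Benjamini-Hochberg over all genes, and genes under 0.05 are called. The regional difference used 64 arrays (CA1, DG, EC, Sub). An SE is that of the contrast. No array was left out, and the highest correlation between CA1 arrays was 0.993. Array signals carry no counts, and the number of arrays limits precision.

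Genes, the 40 lists and tests were chosen with earlier results of these data known. The rule for naming genes took the 12 largest rises and falls among called genes with separate groups and a higher mean above the median. It also took up to 5 called members of a list (2 where none was called), the 5 largest regional differences each way, and up to 4 genes per step and direction. Uncharacterised, pseudogene and Y-linked entries were passed over. The code was tested on simulated data. Figures used Python and matplotlib.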

Additional observations from a re-analysis of the deposited data

Results flagged for a closer look

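Of 208 groups of 4 values examined, 13 had 1 array far from the other 3, a share close to the 5% or so that chance gives. Most groups belong to genes named from these same arrays, so they are no neutral sample. Of these 13, 6 were six-month array 12, whose GAPDH ratio was also low. In that array RPL27A was at 7.24 (9.13 to 9.38 in the others), KLF10 at 7.32 (7.98 to 8.11), NRP1 at 6.34 (5.82 to 5.90), GRIA1 at 9.24 (8.65 to 8.75), GRM5 at 10.04 (9.73 to 9.76) and EEF1A2 at 7.63 (6.44 to 6.58). TFRC was high in six-month array 9 (8.82, others 8.25 to 8.33) and RSPH1 low in six-month array 10 (5.01, others 5.47 to 5.52). In adult array 1 NRP1 was at 4.96 (4.64 to 4.68), P2RY12 at 6.47 (6.16 to 6.19) and KCNC1 at 6.98 (7.64 to 7.72). CNR1 was low in adult array 2 (7.59, others 7.99 to 8.01) and AFTPH in adult array 4 (7.19, others 7.76 to 7.86). The part of RNA integrity in these values was not tested.

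Over all genes 2.7% passed the limma test of the difference between regions. The largest differences each way were named for that difference, and other genes mostly for values in CA1, which enter it. A count of named genes that passed is therefore partly set by the naming and is no evidence beyond the calls. For 27 named genes the change in CA1 differed from the mean change in DG, EC and Sub by the limma test of the difference. It was above for ADSS1 (1.33), MARCKSL1 (1.31), FOXO6 (1.15), ANKRD9 (1.11), EEF1A2 (1.08), FOLR1 (1.05), ATP1B2 (1.01), NDUFA9 (0.69), MCM7 (0.68), PGK1 (0.67), MT1E (0.65), SYNDIG1 (0.62), CACNB3 (0.59) and NDUFB8 (0.48). It was below for NTS (−1.54), RPS6KB1 (−1.26), CTXND1 (−1.22), RICTOR (−1.22), ARHGAP12 (−1.19), NDST4 (−1.18), SORCS3 (−0.96), STXBP6 (−0.87), NRP1 (−0.81), SOX6 (−0.73), GPHN (−0.69), GRIA1 (−0.67) and SLC6A15 (−0.65). The adult and six-month CA1 arrays both had a higher GAPDH ratio than those of DG and EC, and its part in these differences was not tested.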

How the results depend on the processing

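The 384 calls of adult minus 6 months in CA1 became 69 with values as deposited and 64 with each array centred on its median, 17 with only the 8 arrays, 577 with the GAPDH ratio and 29 with the ACTB ratio as covariate, 100 with the mean of a gene's probe sets and 88 with array weights. Added after the data were seen, both ratios together gave 45, a fit with no newborn arrays 69, and the fit without six-month array 12 and adult array 4 gave 257. In the same order up to array weights, the 57 called list members became 15, 15, 9, 90, 12, 19 and 19, and 14 with both ratios and 18 with no newborn arrays. Of the 24 largest changes 15 stayed past the threshold with centred arrays, 13 with the 8 arrays, 12 with the ACTB ratio, 12 with the mean of probe sets and 15 with both ratios. Leaving out 1 array gave 129 to 715 calls, 24 to 89 list members and 18 to 23 of the 24. VAMP1, AKR1C2, AKR1C1, SLC47A1, SYNDIG1, NTS and ANKRD50 passed in all 20 alternatives, and, also of the 24, RPL27A, FOLR1, ARHGAP12 and HMGCS1 lost the call in 12 each, TOP1 in 14, EPHA5 in 15. Over the mean of its probe sets PDGFRA changed sign (0.023). The GAPDH ratio difference was −0.11 without six-month array 12 and lay between −0.11 and 0.40 with any 1 array left out.

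The 534 genes of the difference between regions became 153 with values as deposited, 881 with the GAPDH ratio, 108, 210 and 45 against DG, EC and Sub alone, and 925 without adult Sub array 4. Leaving out 1 CA1 array gave 199 to 1101. The steps of 8 and 16 calls became 2 and 9 with values as deposited and 3 and 10 with the GAPDH ratio, and 1 to 6 and 0 to 23 with 1 array left out (the 0 is without one year array 5, with 1820 genes unadjusted). Array numbers do not repeat between ages of 1 region, so adult and 6 months could not be paired. With the number as a replicate block the difference between regions had 641 calls, 344 of them shared with the 534. The same number was the best match in 17 of 24 comparisons of a CA1 array with another region, and a correlation over 0.1 was reached in 12 of 24. A limit of 0.1 cannot decide whether a number marks 1 animal, so the calls are given both unpaired and with the block. The causes of these shifts were not tested. With 4 animals per age, changes of low signals near background cannot be separated from probe noise.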
